A study of Danio rerio with 6 samples.

Results

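Heat shock proteins and chaperonins are the families of proteins that fold other proteins, and 111 of the 32520 zebrafish genes counted here carry a name of these families. Members were taken by a rule on gene names that uses none of their values, but the rule was chosen with earlier results of these data known. They were the genes whose symbol, in either case, begins with hsp, dnaj, cct, hsf or bag in the form that marks a family member, together with tcp1 and the serpinh1 genes. Of the names that fit this pattern but belong to other genes (hspg2 and hspbap1), 1 was found and left out. Symbols in the name table mix the zebrafish and the human style, and 11 member symbols stand for 22 identifiers, so an Ensembl identifier is given where a symbol is shared. By mean level over the 6 libraries, 11 members were at 100 CPM or more (CPM, read counts scaled to the same library total), 41 between 10 and 100 CPM, 50 between 1 and 10 CPM and 9 under 1 CPM. At least 1 count was found in every library for 96 members, and 1 member (HSF4) had none in any.

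RNA was sequenced from skin or melanoma biopsies of 1-month-old zebrafish in 3 groups of 2 libraries each. The mgat4b mutant melanoma and the control melanoma were both raised with MAZERATI, a set of plasmids injected into the embryo. These drive the human oncogene BRAF V600E from the melanocyte promoter of mitfa and express Cas9 in melanocytes with guides against genes that include ptena and ptenb. The mutant group also received a guide against mgat4b, a Golgi enzyme that starts a branch of N-glycans, and the control group a vector with no such target. Because Cas9 was expressed from the mitfa promoter in injected fish, both melanoma groups can hold edited and unedited cells. The authors report that control fish formed tumours, while mutant fish had signs of melanocyte aggregation but no tumour. Mutant libraries keep their label of melanoma here, and the presence of tumours thus also differs between the melanoma groups. Wild-type melanophores, the pigment cells of uninjected fish, served as the untransformed state. Cells of all groups were freed with an enzyme mix and passed through a Percoll density gradient before RNA was extracted, and the series is described as drawing on 5 zebrafish, with no number of fish for each library. All p-values below therefore measure the spread between these libraries.

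Chaperones bind unfolded proteins through cycles of ATP use. In the cytosol the Hsp70 and Hsp90 families, the J-domain proteins that hand substrates to Hsp70, and the ring-shaped chaperonin TRiC work at all times, while further genes are switched on by heat or other stress through the heat shock factors. The endoplasmic reticulum and the mitochondria have their own sets, which respond to misfolded proteins in each compartment through separate signals. Melanoma cells, like other tumour cells, are known to depend on several of these proteins, among them the Hsp90 family that keeps oncogenic BRAF folded.

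Library totals ran between 3538922 and 8446997 counts, with the smallest in the mutant group, and between 20044 and 25475 genes had counts. Scaling factors for composition (TMM, trimmed mean of M values) were 0.895 and 0.956 in mutant, 0.787 and 0.783 in control melanoma and 1.38 and 1.37 in wild-type libraries. All CPM below are scaled by them. Both mutant libraries differed from each other more than the replicates of other groups, with a chi-square per gene of 10.2 in mutant, 2.52 in control melanoma and 2.31 in wild-type libraries. Transcript levels of mgat4b were 20.1 and 15.4 CPM in mutant, 15.8 and 16.2 CPM in control melanoma and 26.0 and 26.6 CPM in wild-type libraries, and mutant against control did not pass the test (adjusted p = 0.717). The transcript was thus not detectably lower in the libraries labelled mutant, the edit itself was not analysed here, and these values give no check of that label. Melanophore markers, 19 genes, summed to 333 and 318 CPM in mutant, 309 and 318 CPM in control melanoma and 95.8 and 98.7 CPM in wild-type libraries. DCT and 1 of the MITF genes, defining markers, were at 0 counts in the second mutant library. Keratinocyte markers, 20 genes, summed to 22379 and 21159 CPM, 15811 and 15552 CPM, and 24554 and 25028 CPM in the same order, so that RNA of other skin cells was present in every group. The libraries named wild-type melanophores thus had the lowest sum of melanophore markers and the highest sum of keratinocyte markers. This bears on every comparison against wild-type below. In such mixed samples fewer cells of a type and less RNA per cell cannot be told apart.

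More chaperone genes were higher in mutant than in control melanoma, and far fewer lower, than the background of all genes. A gene was called when edgeR's quasi-likelihood test gave a Benjamini-Hochberg adjusted p under 0.05 over all genes tested and the log2 fold change was at least 1 in size. In mutant against control, 18 of 97 tested members (18.6%) were called higher, where 5.86% of all 17651 genes tested were. By contrast 1 member (1.03%) was called lower, where 6.68% of all genes were. The median log2 fold change was 0.31 over the members and −0.02 over all genes.

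Control melanoma against wild-type melanophores gave calls in both directions. Of 99 tested members, 16 (16.2%) were called higher, where 19.9% of all genes were, and 11 (11.1%) lower, where 12.1% were. Those shares are near the background. With no minimum fold change the adjusted p was under 0.05 for 17 higher and 38 lower members, and the member median was −0.22. Mutant melanoma against wild-type gave 6 members called higher and 6 lower of 96 tested (6.25% each), below the background of 9.72% and 9.57%. HSPE1 was the 1 member called in all 3 comparisons, and 68 members were called in none. The 3 comparisons share libraries, so their values stand side by side and are not independent.

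**Figure D1:**
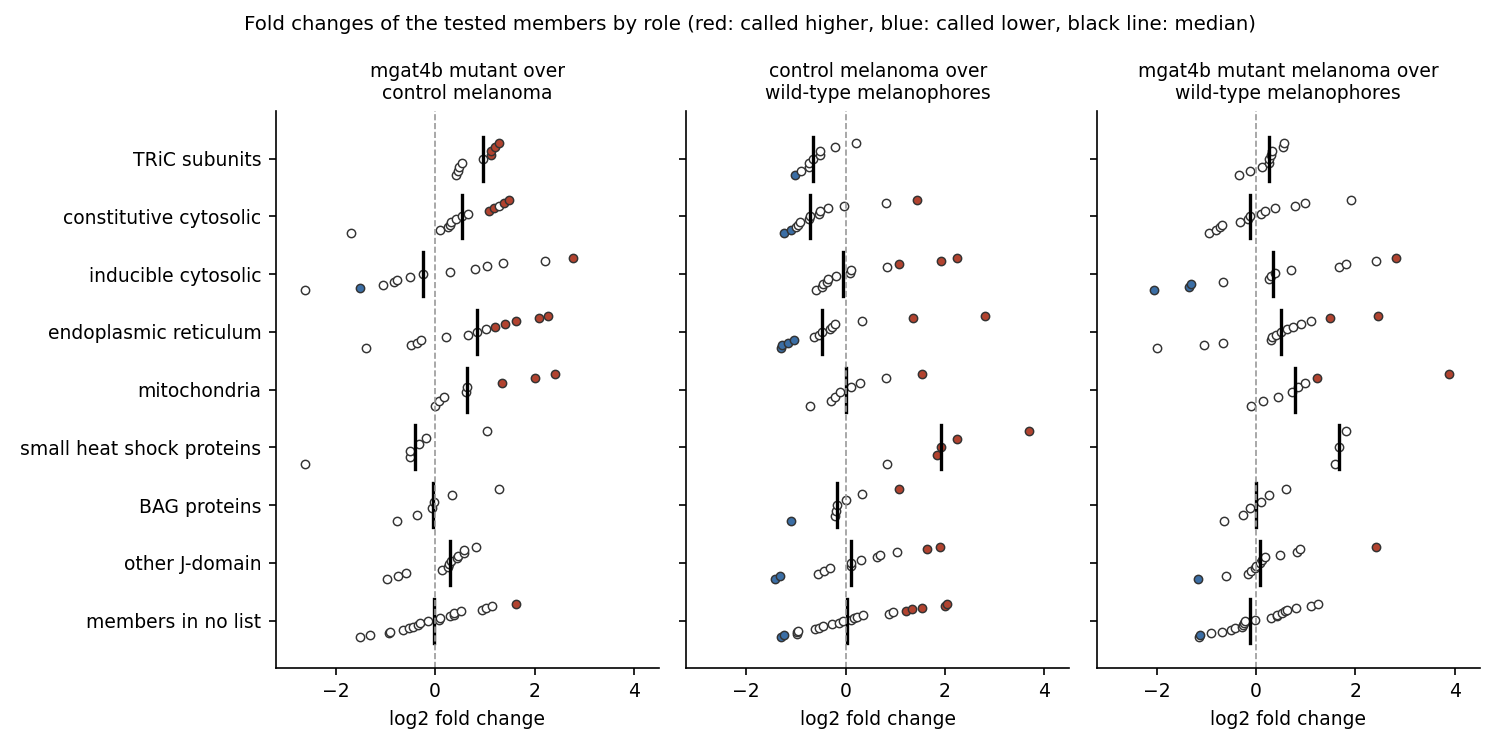
Each point is 1 tested member, placed by its log2 fold change in mgat4b mutant over control melanoma, control melanoma over wild-type and mutant over wild-type libraries, with members sorted by role on the vertical axis. Red points were called higher, blue points lower and white points not called, and black lines are medians. TRiC subunits all lie right of 0 in mutant against control. BAG2, with 0 counts in both mutant libraries, is left out of the panel of mutant against wild-type. The heat shock factors are not drawn, and a member of more than 1 role, such as BAG3, is drawn in each of its roles.

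A pair of constitutive genes held between 48.4% and 61.9% of the chaperone counts. HSPA8 (ENSDARG00000068992), the ever-present cytosolic Hsp70, took 34.8% and 36.9% of all member counts in mutant, 34.4% and 35.2% in control melanoma and 40.6% and 41.4% in wild-type libraries. Together with HSP90AB1, the constitutive Hsp90, the share was 48.4% and 51.0% in mutant, 51.3% and 52.6% in control melanoma and 61.9% and 61.8% in wild-type libraries. All 111 members summed to 7143 and 7119 CPM in mutant, 4665 and 4751 CPM in control melanoma and 7937 and 8033 CPM in wild-type libraries. Without those 2 genes the order of the groups changed, with 3684 and 3488 CPM in mutant, 2274 and 2254 CPM in control melanoma and 3023 and 3070 CPM in wild-type libraries. That change rests on the scaling for composition, since without it wild-type stayed above mutant. Control melanoma was lowest in both sums.

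Levels of different genes were compared per kilobase of counted length. HSPA8 led in every group, at 372 CPM per kilobase in mutant, 238 in control melanoma and 476 in wild-type libraries (means of 2). Next in mutant came HSPA5 (184), HSP90AB1 (179), HSPE1 (98.7) and HSP90B1 (90.04 CPM per kilobase). In control melanoma HSP90AB1 (146) and HSPA5 (118) came next, and in wild-type HSP90AB1 (301) and HSPA5 (151 CPM per kilobase). HSPE1, the fourth in mutant, was not among the first 12 in control melanoma or wild-type libraries.

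Inducible and constitutive members were compared by their summed levels, without a test of the difference. The inducible list held 13 cytosolic genes known to respond to heat or stress (hsp70 copies, dnajb1 copies, HSP90AA1 copies, HSPH1, BAG3, HSPB1 and other small heat shock proteins), and the constitutive list 13 cytosolic genes known for steady expression. The inducible list summed to 215 and 217 CPM in mutant, 227 and 218 CPM in control melanoma and 278 and 264 CPM in wild-type libraries. The level of this full list in both melanomas was thus close and below that of wild-type. Over a narrow list of hsp70 copies, dnajb1 copies and BAG3 the melanomas were not close. That list summed to 124 and 124 CPM in mutant, 176 and 166 CPM in control melanoma and 223 and 214 CPM in wild-type libraries. The constitutive list summed to 3858 and 4047 CPM in mutant, 2651 and 2748 CPM in control melanoma and 5298 and 5365 CPM in wild-type libraries, with no overlap between any 2 groups. Most of that sum was HSPA8 (ENSDARG00000068992) and HSP90AB1. The other 11 genes summed to 399 and 416 CPM in mutant, 260 and 251 CPM in control melanoma and 383 and 402 CPM in wild-type libraries. Over these, mutant and wild-type overlapped and control melanoma was lowest.

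As a share of the constitutive sum, the inducible sum was 5.57% and 5.35% in mutant, 8.56% and 7.92% in control melanoma and 5.25% and 4.93% in wild-type libraries. The control share was the highest whichever list was used. With a narrow inducible list of hsp70 copies, dnajb1 copies and BAG3 it was 3.23% and 3.08% in mutant, 6.62% and 6.04% in control melanoma and 4.20% and 3.99% in wild-type libraries. Leaving HSPA8 and HSP90AB1 out of the constitutive sum gave 53.9% and 52.1%, 87.2% and 86.6%, and 72.5% and 65.7% in the same order. Mutant was therefore above wild-type with the full lists and below it with both others. HSPA2, an Hsp70 gene of the chromosome 3 cluster given below, was in none of these lists. It had 16.0 and 8.28 CPM in mutant, 26.0 and 21.6 CPM in control melanoma and 28.3 and 26.6 CPM in wild-type libraries. With HSPA2 added to the full inducible list, the shares of the mutant and wild-type libraries would overlap. The lists were described by values alone, since 2 libraries against 2 cannot give an exact two-sided permutation p below 0.333.

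**Figure D2:**
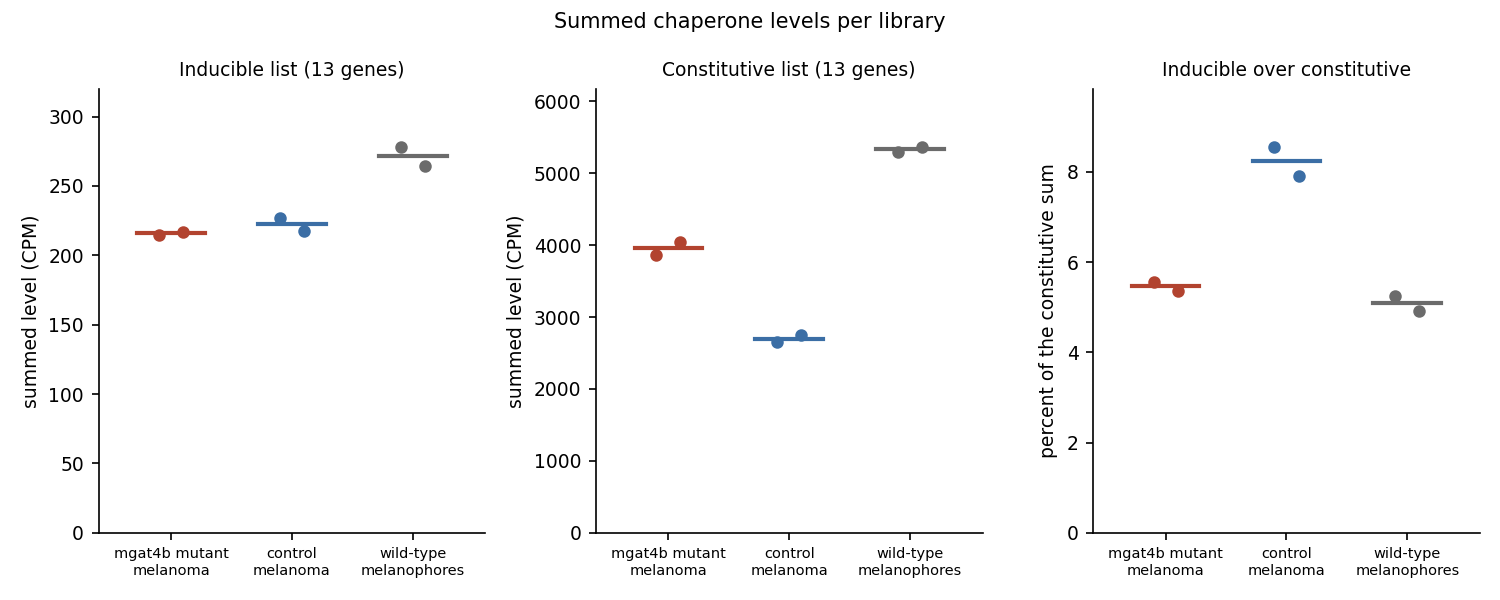
Points are libraries and lines are group means of the summed CPM of the inducible list, the summed CPM of the constitutive list and the first as a percentage of the second, for mgat4b mutant melanoma, control melanoma and wild-type melanophores. Control melanoma has the highest share (8.56% and 7.92%), with the lowest constitutive sum.

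Calls were also counted within each list. For this and the lists given later, the background is the share of all genes called higher and lower. It was 5.86% and 6.68% in mutant against control and 19.9% and 12.1% in control against wild-type. In mutant against wild-type it was 9.72% and 9.57%. In mutant against control 4 of 13 tested constitutive genes were called higher and none lower (median log2 fold change 0.54), while 1 inducible gene was called higher and 1 lower of 13 (median −0.25, or −0.76 over the narrow list). For the inducible list these shares, 1 of 13 each way, are near the background of 5.86% and 6.68%. In control melanoma against wild-type 1 constitutive gene was called higher and 2 lower of 13 (median −0.72, with 0 higher and 4 lower by DESeq2), and 3 inducible genes higher and none lower of 12 (median −0.05), where 19.9% of all genes were called higher. In mutant against wild-type neither edgeR nor DESeq2 called a constitutive gene of 13 (median −0.12, with an unadjusted p under 0.05 for 4 higher and 3 lower genes), and 1 inducible gene was called higher and 3 lower of 12 (median 0.34, or −0.67 over the narrow list). The inducible list was not uniform, with hsp90aa1.1 called higher and hsp70l called lower in mutant against control.

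An hsp70l gene and a cluster of 3 further Hsp70 genes had their lowest levels in mutant melanoma and their highest in wild-type. For hsp70l, on chromosome 8, levels were 7.70 and 4.14 CPM in mutant, 18.7 and 16.3 CPM in control melanoma and 27.7 and 23.7 CPM in wild-type libraries. It fell in mutant against control by 1.52 ± 0.38 on the log2 scale (SE, n = 2 each, adjusted p = 0.0246) and against wild-type by 2.05 ± 0.33 (adjusted p = 0.00517). This is the 1 member called lower in mutant against control, and its groups did not overlap. The call against control was lost without control library 1 (adjusted p = 0.228), without control library 2 (adjusted p = 0.109) and with no low-count filter (adjusted p = 0.0753).

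A cluster on chromosome 3 held hsp70.1, HSPA2 and hsp70.3 within 26112780 to 26127091 (GRCz11), with gaps of 4043 and 1382 bases between neighbours. For hsp70.3 the levels were 14.5 and 22.2 CPM in mutant, 32.0 and 32.8 CPM in control melanoma and 46.3 and 47.0 CPM in wild-type libraries. Its log2 fold change was −0.82 ± 0.25 against control (adjusted p = 0.0537), short of the threshold, and it fell against wild-type by 1.34 ± 0.23 (adjusted p = 0.00615). The gene named HSPA2 in the table had 16.0 and 8.28 CPM in mutant, 26.0 and 21.6 CPM in control melanoma and 28.3 and 26.6 CPM in wild-type libraries. It was called against wild-type (−1.12 ± 0.31, adjusted p = 0.0385) but not against control (−0.93 ± 0.34, adjusted p = 0.09).

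For hsp70.1 the mutant libraries had 3.42 and 5.03 CPM, control melanoma 8.65 and 8.77 CPM and wild-type 11.3 and 9.72 CPM, with log2 fold changes of −1.04 ± 0.48 against control (adjusted p = 0.174) and −1.30 ± 0.39 against wild-type (adjusted p = 0.0483). For hsp70.1 and HSPA2 the calls against wild-type depended on both wild-type libraries, while those of hsp70.3 and hsp70l were kept without either. Without wild-type library 1 or 2 the adjusted p was 0.506 or 0.341 for hsp70.1 (0.135 with DESeq2) and 0.162 or 0.107 for HSPA2, and without mutant library 2 the fold change of HSPA2 was −0.76. Summed after these values were seen, hsp70.1, HSPA2, hsp70.3 and hsp70l had 41.7 and 39.6 CPM in mutant, 85.3 and 79.6 CPM in control melanoma and 114 and 107 CPM in wild-type libraries. The 3 genes on chromosome 3 lie inside the span of atp2a1, a muscle calcium pump. Hsp70 copies of this kind are known to be alike in sequence, so the split of reads between them is uncertain. Levels of atp2a1 were 50.05 and 61.2 CPM in mutant, 46.8 and 44.5 CPM in control melanoma and 2.16 and 3.58 CPM in wild-type libraries. The part of reads from atp2a1 in the counts of the cluster was not tested.

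Other heat-responsive genes varied. The J-domain partner of inducible Hsp70, dnajb1b, had 78.3 and 68.3 CPM in mutant, 91.2 and 85.3 CPM in control melanoma and 120.2 and 118 CPM in wild-type libraries. No fold change of it reached 1 on the log2 scale, with −0.25 ± 0.13 in mutant against control (adjusted p = 0.241) and −0.67 ± 0.12 in mutant against wild-type (adjusted p = 0.00729). HSPH1, an exchange factor of Hsp70, had 12.6 and 5.91 CPM in mutant, 3.55 and 3.78 CPM in control melanoma and 6.40 and 5.32 CPM in wild-type libraries, and hspa1b 2.78 and 5.91 CPM, 0.618 and 1.21 CPM, and 0.590 and 1.02 CPM. Both of these, chosen after their values were seen, had higher levels in mutant than in control melanoma, unlike the hsp70 cluster, but were not called in any comparison.

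Immediate early genes such as FOSB and JUN, a set that tissue handling is known to raise, were measured in the same libraries. The 16 genes of that list summed to 5585 and 5513 CPM in mutant, 7021 and 6996 CPM in control melanoma and 9852 and 9736 CPM in wild-type libraries. Of 16, 0 were called higher and 1 (ATF3) lower in mutant against control, a share near the background. The unadjusted edgeR p there was under 0.05 for 1 higher and 9 lower genes (median −0.30), and NR4A1 had a higher level in mutant than in control melanoma. The calls were 0 higher and 5 lower in control against wild-type, and 0 higher and 8 lower in mutant against wild-type. Of all genes, 12.1% were called lower in control against wild-type and 9.57% in mutant against wild-type. The part of the immediate early genes in the levels of the inducible Hsp70 genes was not tested.

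Cytosolic Hsp90 genes lie side by side on chromosome 20 and behaved differently. HSP90AA1 (53967350 to 53981626) had 49.4 and 52.3 CPM in mutant, 30.7 and 28.0 CPM in control melanoma and 41.0 and 38.9 CPM in wild-type libraries, and mutant exceeded control by 0.81 ± 0.17 on the log2 scale (adjusted p = 0.0117), under the minimum size for a call. Its neighbour hsp90aa1.1 (53982317 to 54012043), 690 bases away on the same strand, had 18.4 and 19.2 CPM in mutant, 1.55 and 3.93 CPM in control melanoma and 2.85 and 2.56 CPM in wild-type libraries. It rose in mutant against control by 2.78 ± 0.47 on the log2 scale (adjusted p = 0.0039) and against wild-type by 2.82 ± 0.32 (adjusted p = 0.0012). In control melanoma against wild-type the difference was 0.10 ± 0.46 (adjusted p = 0.864), and it was −0.72 without control library 2. Of the summed CPM of both genes, hsp90aa1.1 held 27.1% and 26.9% in mutant, 4.78% and 12.3% in control melanoma and 6.50% and 6.17% in wild-type libraries.

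In zebrafish, hsp90aa1.1 is known for folding myosin in skeletal muscle together with the myosin chaperone Unc45b. UNC45B moved alongside it, with 13.5 and 8.57 CPM in mutant, 2.78 and 1.82 CPM in control melanoma and 2.56 and 2.56 CPM in wild-type libraries, and rose in mutant against control by 2.28 ± 0.53 (adjusted p = 0.0183). The muscle list as a whole did not follow that order. Its 25 genes summed to 1498 and 1421 CPM in mutant, 2378 and 2386 CPM in control melanoma and 132 and 117 CPM in wild-type libraries, with 2 genes called higher and 6 lower of 24 in mutant against control. Its tropomyosin gene tpma had 84.1 and 79.8 CPM in mutant, 179.5 and 186 CPM in control melanoma and 6.40 and 5.32 CPM in wild-type libraries. The myosin gene myhz2 had 25.7 and 21.6 CPM, 61.5 and 79.1 CPM, and 2.56 and 1.53 CPM in the same order. Both structural genes were thus highest in control melanoma, where hsp90aa1.1 was at 1.55 and 3.93 CPM. Other genes of the list went the other way. Besides UNC45B, the calcium channel gene RYR3 was called higher in mutant against control, and atp2a1 had its highest levels in mutant. The part of muscle cells in its level was not tested.

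**Figure D3:**
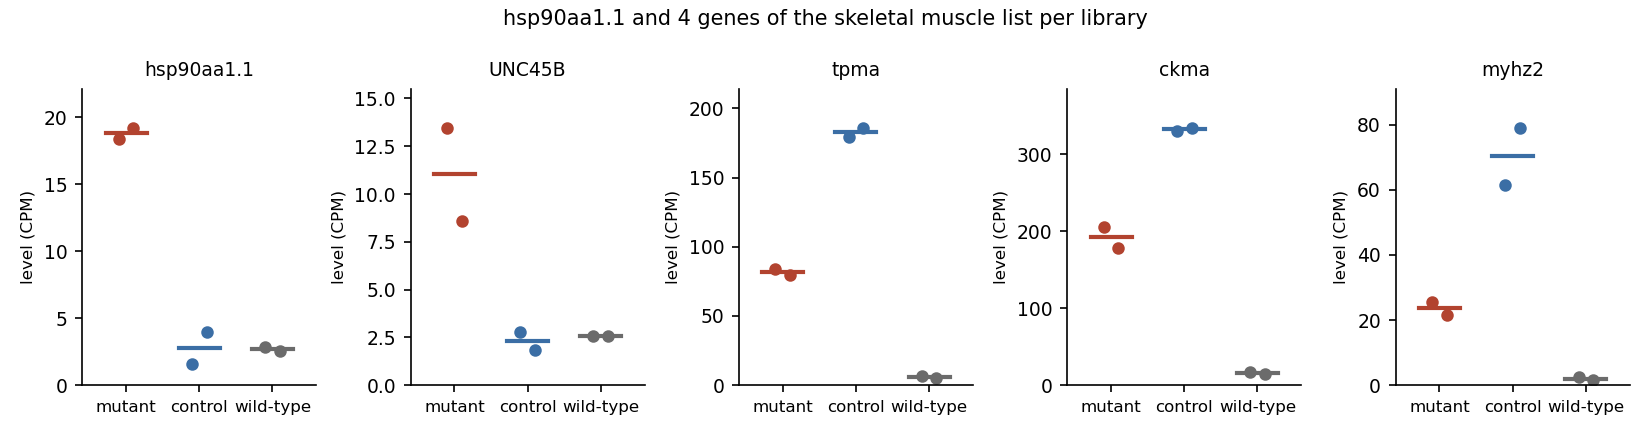
Levels in CPM of hsp90aa1.1, its partner UNC45B and the muscle genes tpma, ckma and myhz2 in each library of mgat4b mutant melanoma, control melanoma and wild-type melanophores, with points for libraries and lines for group means. The first 2 genes are highest in mutant (hsp90aa1.1 at 18.4 and 19.2 CPM), and tpma, ckma and myhz2 in control melanoma. Not drawn are RYR3 and atp2a1 of the same muscle list, which were higher in mutant than in control melanoma.

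Among constitutive cytosolic chaperones the abundant genes shifted by less than the minimum size and several less abundant ones by more. HSPA8 had 2485 and 2626 CPM in mutant, 1605 and 1671 CPM in control melanoma and 3225 and 3328 CPM in wild-type libraries. Its log2 fold changes were 0.66 ± 0.08 in mutant against control (adjusted p = 0.000573), −0.92 ± 0.04 in control against wild-type (adjusted p = 2.12e-25) and −0.33 ± 0.07 in mutant against wild-type (adjusted p = 0.0124). HSP90AB1 had 974 and 1005 CPM in mutant, 786 and 826 CPM in control melanoma and 1689.5 and 1635 CPM in wild-type libraries, with 0.31 ± 0.08 in mutant against control (adjusted p = 0.0282). Both had the order wild-type, mutant, control, and no library of a group overlapped another group.

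HSPA14, an Hsp70 relative that acts at the ribosome, had 24.4 and 33.4 CPM in mutant, 10.04 and 10.59 CPM in control melanoma and 26.1 and 25.3 CPM in wild-type libraries. It rose in mutant against control by 1.49 ± 0.28 (adjusted p = 0.00629) and fell in control against wild-type by 1.23 ± 0.18 (adjusted p = 5.65e-08), so that mutant and wild-type levels overlapped. The 2 HSPA4 genes, exchange factors for Hsp70, rose in mutant against control. ENSDARG00000004754 had 138 and 121 CPM in mutant, 61.7 and 62.3 CPM in control melanoma and 67.9 and 65.6 CPM in wild-type libraries (mutant against control 1.08 ± 0.13, adjusted p = 0.000615), and without mutant library 1 its fold change was 0.96. ENSDARG00000018989 had 60.3 and 49.4 CPM, 25.0 and 23.7 CPM, and 43.8 and 41.9 CPM in the same order (1.19 ± 0.18, adjusted p = 0.00249).

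The J-domain protein dnaja1 had 15.4 and 19.5 CPM in mutant, 7.57 and 5.90 CPM in control melanoma and 9.35 and 11.4 CPM in wild-type libraries, and rose in mutant against control by 1.38 ± 0.34 (adjusted p = 0.0237). HSPBP1, a further exchange factor, had 13.5 and 8.87 CPM in mutant, 2.78 and 4.54 CPM in control melanoma and 7.87 and 7.47 CPM in wild-type libraries (mutant against control 1.63 ± 0.49, adjusted p = 0.0486). Both calls needed both control libraries and the low-count filter. Without control library 1 or 2 the adjusted p was 0.124 or 0.284 for dnaja1 and 0.454 or 0.164 for HSPBP1, and with no filter 0.0639 and 0.113. DNAJA2 (ENSDARG00000104066) went another way, with 82.3 and 103 CPM in mutant, 91.8 and 82.3 CPM in control melanoma and 145 and 159 CPM in wild-type libraries. Its melanoma groups overlapped.

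TRiC, the chaperonin that folds actin and tubulin, had a higher summed level in mutant than in control melanoma, and 4 of its genes were called higher. Its 9 genes summed to 1207 and 1105 CPM in mutant, 623 and 627 CPM in control melanoma and 1041 and 1066 CPM in wild-type libraries. There were 4 of 9 called higher and none lower in mutant against control, and the median log2 fold change was 0.97. In control against wild-type 1 of 9 was called lower (median −0.64), a share near the 12.1% of all genes. In mutant against wild-type none was called by edgeR or DESeq2 (median 0.26), with an unadjusted p under 0.05 for 5 higher and 1 lower.

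The largest rise of a subunit in mutant against control was that of CCT3, with 155 and 140.4 CPM in mutant, 61.5 and 61.3 CPM in control melanoma and 116 and 127 CPM in wild-type libraries (1.28 ± 0.12, adjusted p = 0.000203). CCT5 had 154 and 153 CPM in mutant, 68.8 and 65.7 CPM in control melanoma and 147 and 142 CPM in wild-type libraries, rose in mutant against control by 1.21 ± 0.12 (adjusted p = 0.000216) and fell in control against wild-type by 1.02 ± 0.08 (adjusted p = 2.49e-15). In CCT5 mutant and wild-type differed by 0.12 ± 0.10 (adjusted p = 0.404). Without control library 2 its change in control against wild-type was −0.99, just short of the minimum size.

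TCP1 had 147 and 131 CPM in mutant, 65.1 and 64.7 CPM in control melanoma and 115 and 114 CPM in wild-type libraries, and rose in mutant against control by 1.12 ± 0.12 (adjusted p = 0.000431). CCT7 had 179 and 144 CPM, 76.8 and 73.2 CPM, and 114 and 113 CPM in the same order (1.12 ± 0.14, adjusted p = 0.000726), and its change was 0.93 without mutant library 1. CCT8 lay just under the minimum size, with 213 and 236 CPM in mutant, 114 and 117 CPM in control melanoma and 188 and 195 CPM in wild-type libraries (0.97 ± 0.11, adjusted p = 0.000466). The remaining subunits moved less.

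CCT4 had 112 and 94.0 CPM in mutant, 75.7 and 75.0 CPM in control melanoma and 110.1 and 118 CPM in wild-type libraries (mutant against control 0.47 ± 0.13, adjusted p = 0.0395). CCT6B had 161 and 133 CPM, 106 and 109.8 CPM, and 189 and 193 CPM in the same order (0.46 ± 0.13, adjusted p = 0.0344). Subunits of 1 ring are needed in equal number, yet their fold changes in mutant against control spread between 0.42 and 1.28. The subunit named on 2 identifiers on chromosome 4, cct2 and CCT2, which lie 12864 bases apart on opposite strands, had 26.9 and 29.0 CPM and 58.0 and 45.2 CPM in mutant, against 16.5 and 25.6 CPM and 38.2 and 34.3 CPM in control melanoma. Proliferation genes were higher in the same libraries. The 20 genes of that list summed to 934 and 971 CPM in mutant, 229 and 237 CPM in control melanoma and 436 and 423 CPM in wild-type libraries, with 14 called higher and none lower in mutant against control, and their part in the TRiC levels was not tested.

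Of the chaperones of the endoplasmic reticulum, 5 were called higher in mutant against control melanoma and 4 were called lower in control melanoma against wild-type. The list of 13 genes summed to 964 and 965 CPM in mutant, 582 and 578 CPM in control melanoma and 698 and 700.4 CPM in wild-type libraries. No gene of the list was called lower in mutant against control (median 0.84 over 13 tested). In control against wild-type 2 were called higher, both of them SERPINH1 genes, and 4 others lower (median −0.47). Of all genes, 19.9% were called higher and 12.1% lower in that comparison, so the 2 of 13 higher are under the background. In mutant against wild-type the 2 genes called higher were again the SERPINH1 genes (median 0.50).

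HSP90B1, the Hsp90 of the reticulum, had 239 and 259 CPM in mutant, 78.5 and 83.5 CPM in control melanoma and 185 and 199 CPM in wild-type libraries. It rose in mutant against control by 1.64 ± 0.11 (adjusted p = 3.91e-05) and fell in control against wild-type by 1.16 ± 0.08 (adjusted p = 1.64e-18), and the mutant was above wild-type by 0.40 ± 0.10 (adjusted p = 0.0231). DNAJB11, a J-domain partner of the reticulum Hsp70, had 35.1 and 35.2 CPM in mutant, 6.49 and 8.17 CPM in control melanoma and 18.8 and 19.5 CPM in wild-type libraries. It rose by 2.27 ± 0.26 in mutant against control (adjusted p = 0.000512) and fell by 1.30 ± 0.21 in control against wild-type (adjusted p = 7.09e-07). For both genes the order was mutant, wild-type, control, with no overlap.

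HSPA5, the reticulum Hsp70 also called BiP, moved less than its partners, with 441 and 419.8 CPM in mutant, 279 and 271 CPM in control melanoma and 358 and 346 CPM in wild-type libraries (mutant against control 0.66 ± 0.09, adjusted p = 0.00139). Among its other J-domain partners, DNAJB9 (ENSDARG00000052072) had 9.41 and 11.5 CPM in mutant, 3.24 and 1.66 CPM in control melanoma and 6.10 and 6.55 CPM in wild-type libraries (2.10 ± 0.55, adjusted p = 0.0282). The other DNAJB9 gene (ENSDARG00000016886), given after its values were seen, had the opposite order at a low level, with 1.71 and 0.296 CPM in mutant, 3.24 and 2.42 CPM in control melanoma and 5.21 and 3.48 CPM in wild-type libraries, and was not called. The gene dnajc3a, whose mammalian protein restrains the reticulum stress kinase PERK, had 13.7 and 16.6 CPM, 4.64 and 6.81 CPM, and 12.2 and 12.7 CPM in the same order (1.41 ± 0.38, adjusted p = 0.0324). Its paralog dnajc3b had 32.5 and 27.2 CPM, 12.2 and 14.1 CPM, and 21.7 and 21.6 CPM (1.2 ± 0.25, adjusted p = 0.0103).

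These calls of the less abundant partners needed both control libraries. Without control library 1 or 2 the adjusted p in mutant against control was 0.0819 or 0.317 for DNAJB9, 0.393 or 0.128 for dnajc3a and 0.152 or 0.0696 for dnajc3b, and with no low-count filter it was 0.0736 for DNAJB9 and 0.0834 for dnajc3a. In control against wild-type DNAJB9 fell by 1.28 ± 0.37 (adjusted p = 0.00278) and dnajc3a by 1.03 ± 0.25 (adjusted p = 0.000435), but the fold change was −0.88 for DNAJB9 without control library 2 and −0.79 for dnajc3a without control library 1. DNAJC10, a reductase with a J domain, had 27.8 and 17.7 CPM in mutant, 12.5 and 10.4 CPM in control melanoma and 14.3 and 16.0 CPM in wild-type libraries and was not called. DNAJC1 did not follow the others, with 5.99 and 13.6 CPM in mutant, 12.1 and 15.3 CPM in control melanoma and 21.2 and 19.0 CPM in wild-type libraries.

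Other folding genes of the reticulum were also called higher in mutant against control. In a list of 21 genes of reticulum folding and stress that are no members, 7 were called higher and none lower there (median 0.70). Of all genes, 5.86% were called higher in that comparison. In control against wild-type none was called higher and 3 lower, the latter near the 12.1% of all genes. In mutant against wild-type 5 were called higher and none lower, where 9.72% of all genes were called higher. MANF, a secreted stress protein, had 45.1 and 67.4 CPM in mutant, 5.41 and 5.14 CPM in control melanoma and 20.5 and 16.0 CPM in wild-type libraries (mutant against control 3.42 ± 0.27, adjusted p = 8.56e-05). HYOU1, the exchange factor of HSPA5, had 84.3 and 101 CPM, 21.9 and 22.8 CPM, and 38.9 and 39.7 CPM in the same order (2.06, adjusted p = 8.19e-05). Regulators among them were not called in mutant against control and differed in direction. DDIT3, a death-promoting factor of prolonged stress, had 110.4 and 109.7 CPM in mutant, 158 and 153 CPM in control melanoma and 169.6 and 169 CPM in wild-type libraries. The stress sensor gene ern1 had 40.6 and 38.4 CPM in mutant, 23.2 and 27.7 CPM in control melanoma and 30.4 and 28.6 CPM in wild-type libraries. XBP1, whose RNA is spliced under stress in a way that gene counts do not show, had 255 and 276 CPM, 241 and 256 CPM, and 434 and 440.1 CPM.

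**Figure D4:**
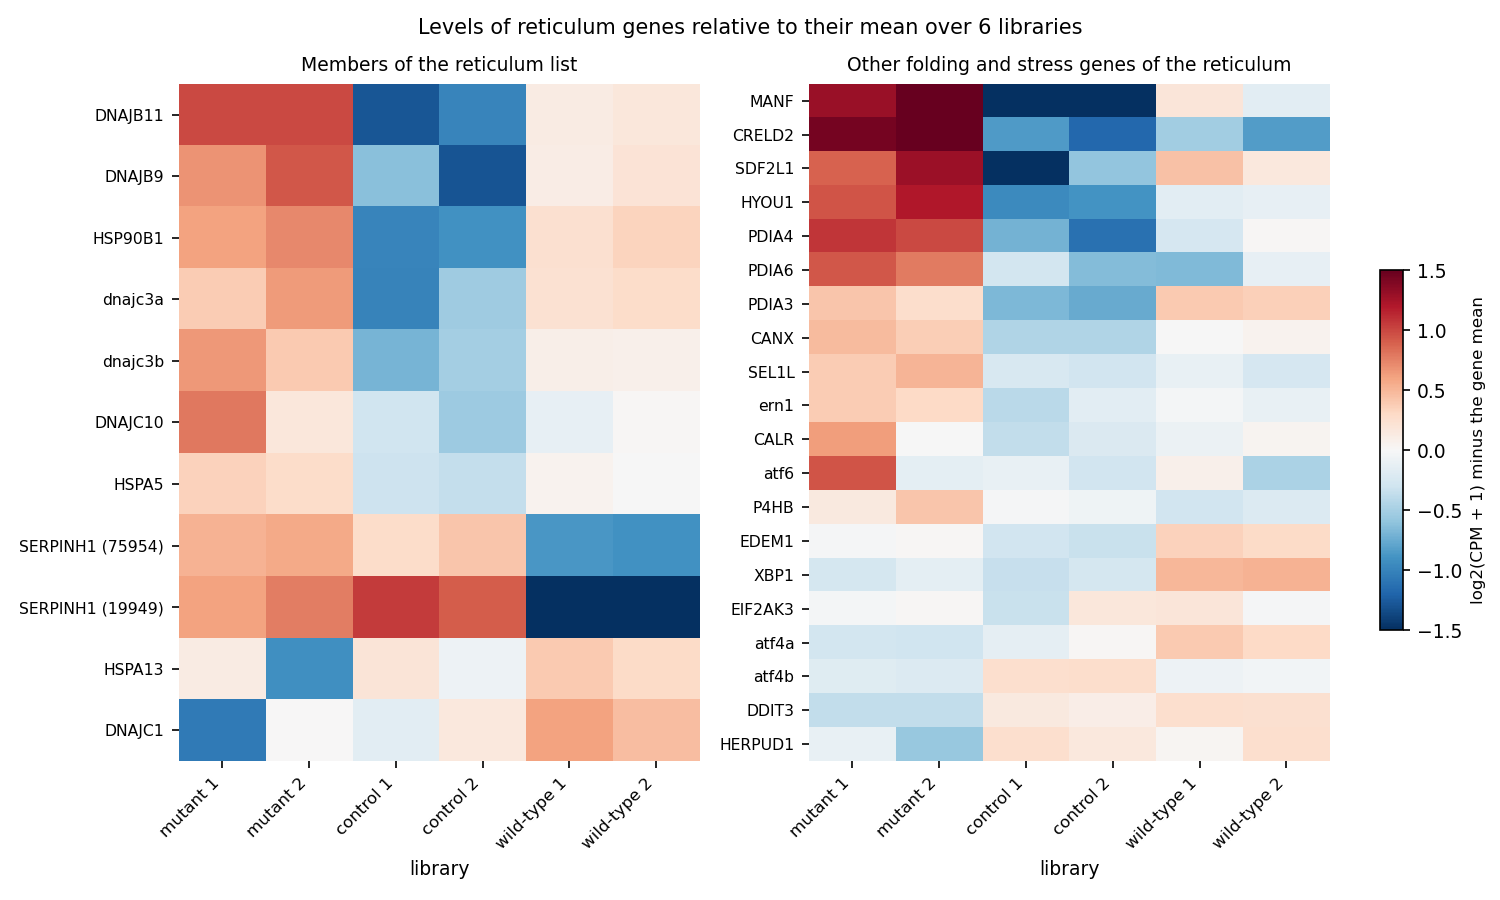
Colours show log2(CPM + 1) minus the mean of the gene over the 6 libraries, red for higher and blue for lower and capped at the ends of the scale, for reticulum members (left) and other folding and stress genes of the reticulum (right), with libraries of mgat4b mutant melanoma, control melanoma and wild-type melanophores from left to right. Genes run from the largest to the smallest difference between mutant and control, with DNAJB11 (35.1 and 35.2 CPM in mutant) and MANF at the top. Genes of low mean level are not drawn. They include DNAJC25 (mean 4.43 CPM) and DNAJB9 (ENSDARG00000016886, mean 2.73 CPM), the latter with its lowest levels in mutant.

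SERPINH1, the collagen chaperone of the reticulum, was higher in both melanoma groups than in wild-type. ENSDARG00000019949 had 66.5 and 74.8 CPM in mutant, 91.5 and 82.7 CPM in control melanoma and 12.1 and 14.1 CPM in wild-type libraries, and rose against wild-type by 2.46 ± 0.17 in mutant (adjusted p = 0.000132) and by 2.81 ± 0.12 in control (adjusted p = 8.71e-26). ENSDARG00000075954 had 75.3 and 78.3 CPM, 63.7 and 70.0 CPM, and 28.1 and 27.3 CPM in the same order, with rises of 1.50 ± 0.13 (adjusted p = 0.000384) and 1.35 ± 0.11 (adjusted p = 6.27e-15). Neither was called in mutant against control, at −0.29 ± 0.14 (adjusted p = 0.183) and 0.22 ± 0.13 (adjusted p = 0.309). Both genes together had 142 and 153 CPM in mutant and 155 and 153 CPM in control melanoma.

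Fibrillar collagens, which this chaperone binds, did not keep that balance. The 10 genes of the collagen list summed to 11625 and 11221 CPM in mutant, 61806 and 63237 CPM in control melanoma and 4186 and 3668 CPM in wild-type libraries. Of these, 9 of 10 were called lower in mutant against control (median −2.23), while against wild-type 9 were called higher in mutant and 10 in control melanoma. The collagen sum thus differed between the melanoma groups while the sum of both SERPINH1 genes overlapped. The part of collagen-making cells in either value was not tested.

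The mitochondrial chaperonin gave the largest called rise of any member, that of HSPE1 in mutant against wild-type. HSPE1, the lid of the Hsp60 chamber, had 201 and 157 CPM in mutant, 38.2 and 30.4 CPM in control melanoma and 11.4 and 13.5 CPM in wild-type libraries. It rose by 2.40 ± 0.17 in mutant against control (adjusted p = 4.56e-05), by 1.54 ± 0.16 in control against wild-type (adjusted p = 9.95e-12) and by 3.87 ± 0.18 in mutant against wild-type (adjusted p = 2.63e-05). HSPD1, the Hsp60 chamber itself, had 140.1 and 111 CPM in mutant, 31.4 and 31.3 CPM in control melanoma and 57.3 and 51.4 CPM in wild-type libraries. It rose by 2.02 ± 0.16 in mutant against control (adjusted p = 7.41e-05) and by 1.24 ± 0.15 in mutant against wild-type (adjusted p = 0.00144), while the change in control against wild-type was −0.71 ± 0.12 (adjusted p = 7.66e-07).

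The pair lies head to head on chromosome 9, HSPD1 at 32286605 to 32300783 on the minus strand and HSPE1 at 32301017 to 32305007 on the plus strand (GRCz11), with 233 bases between them. Their levels did not keep 1 ratio over the groups. HSPE1 over HSPD1, as a ratio of CPM not corrected for length, was 1.43 and 1.42 in mutant, 1.22 and 0.971 in control melanoma and 0.199 and 0.262 in wild-type libraries. Both melanoma groups were thus above wild-type, and in control against wild-type the genes had opposite signs.

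Other mitochondrial chaperones moved less. HSPA9, the mitochondrial Hsp70, had 85.5 and 96.7 CPM in mutant, 54.7 and 63.5 CPM in control melanoma and 61.6 and 74.1 CPM in wild-type libraries (mutant against control 0.64 ± 0.14, adjusted p = 0.0156). DNAJC11 (ENSDARG00000011196), a J-domain protein of the cristae complex, had 37.4 and 23.4 CPM, 12.7 and 11.6 CPM, and 15.6 and 16.0 CPM in the same order and rose in mutant against control by 1.35 ± 0.29 (adjusted p = 0.0125). That call was lost without mutant library 1 (0.94) and without control library 2 (adjusted p = 0.0722), and with no low-count filter (adjusted p = 0.0579). The mitochondrial list summed to 491 and 419 CPM in mutant, 164 and 159 CPM in control melanoma and 168 and 178 CPM in wild-type libraries. Of 8 tested genes, 3 were called higher in mutant against control, 1 in control against wild-type and 2 in mutant against wild-type, and none lower in any. The 1 of 8 in control against wild-type is under the 19.9% of all genes called higher.

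**Figure D5:**
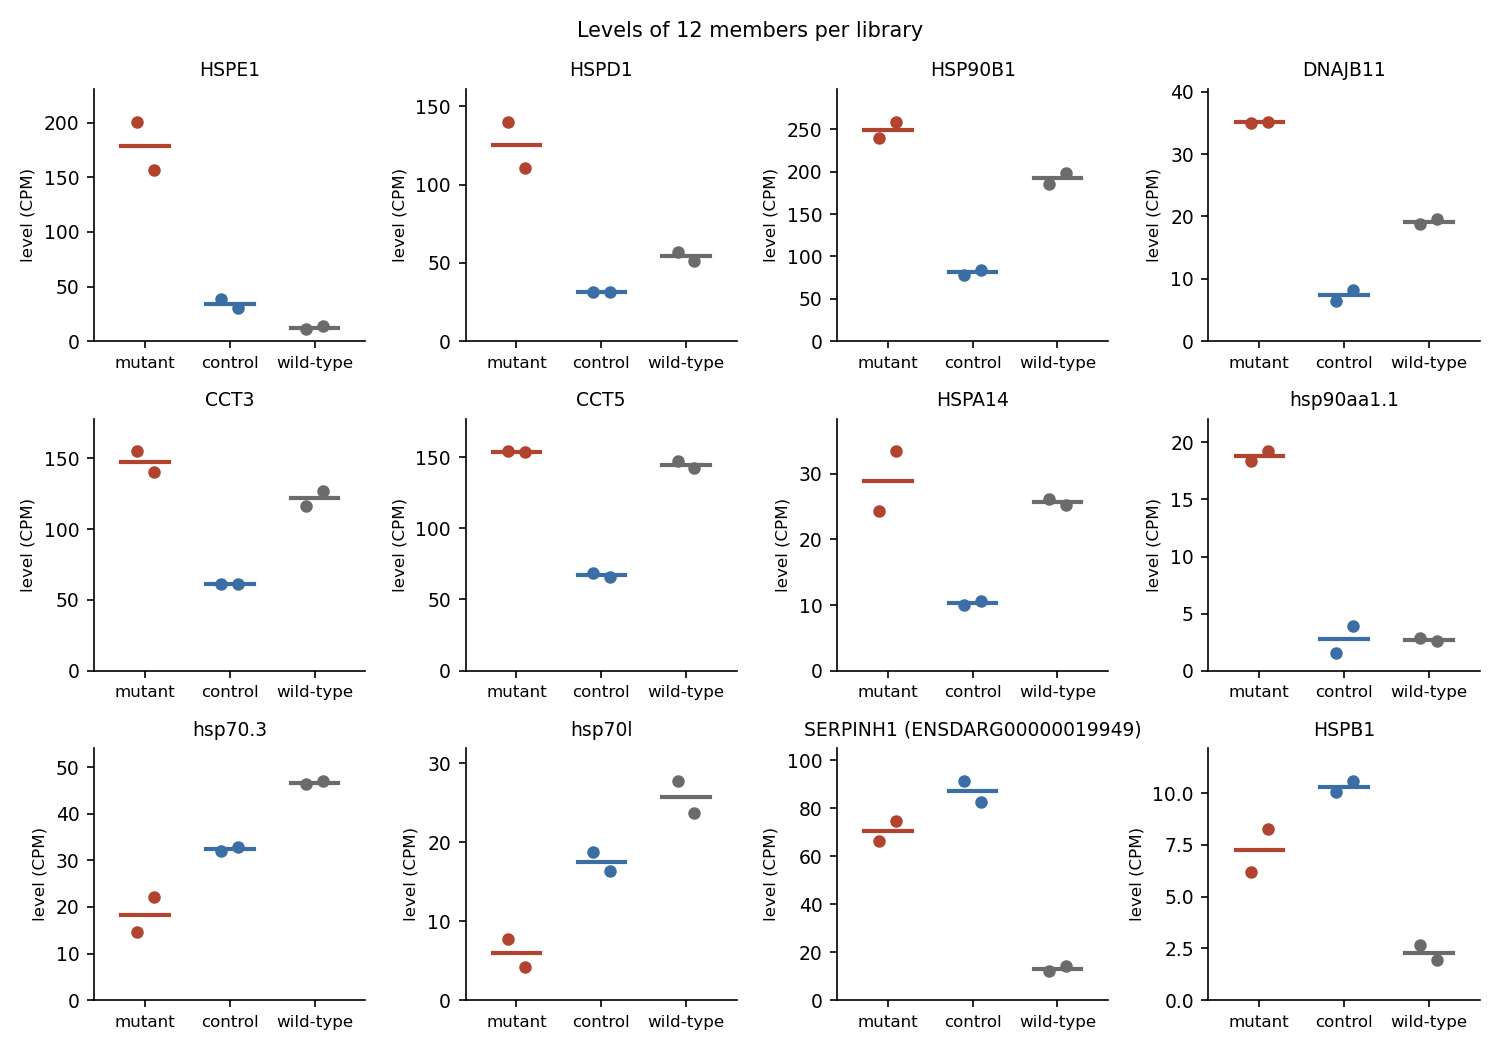
Levels in CPM of 12 members in each library of mgat4b mutant melanoma, control melanoma and wild-type melanophores, with points for libraries and lines for group means. HSPE1 (201 and 157 CPM in mutant) and HSP90B1 stand highest in mutant, hsp70.3 and hsp70l highest in wild-type, and HSPB1 highest in control melanoma.

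Small heat shock proteins, which hold unfolded proteins without ATP, were higher in control melanoma than in the wild-type libraries. The list of 9 genes summed to 19.0 and 23.4 CPM in mutant, 27.8 and 26.2 CPM in control melanoma and 7.97 and 5.52 CPM in wild-type libraries. In control against wild-type 4 of 5 tested genes were called higher and none lower (median 1.91), where 19.9% of all genes were called higher. The low-count filter can be met by 1 group alone. Among the 4, hspb6 was near 0 in wild-type and met the filter only through control melanoma, where it was high. Its call is thus not independent of the filter. Levels of hspb9 were also low in wild-type, so the same limit can apply to its call. The share of 4 in 5 is given as a description only. By contrast edgeR and DESeq2 called none of 6 in mutant against control (1 lower at an unadjusted p under 0.05) and none of 3 in mutant against wild-type (3 higher at an unadjusted p under 0.05). HSPB1 had 6.20 and 8.28 CPM in mutant, 10.04 and 10.59 CPM in control melanoma and 2.66 and 1.94 CPM in wild-type libraries. It rose in control against wild-type by 2.24 ± 0.32 (adjusted p = 5.8e-08), and mutant against wild-type was 1.67 ± 0.51 (adjusted p = 0.0513), just short of the threshold.

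HSPB8 had 4.71 and 4.14 CPM in mutant, 4.64 and 5.60 CPM in control melanoma and 1.77 and 1.23 CPM in wild-type libraries (control against wild-type 1.84 ± 0.43, adjusted p = 0.000274). BAG3, which joins HSPB8 to Hsp70 in the clearance of damaged muscle proteins, had 5.77 and 12.4 CPM, 17.5 and 13.2 CPM, and 8.56 and 6.75 CPM in the same order (control against wild-type 1.08 ± 0.22, adjusted p = 5.5e-05). The BAG3 fold change was 0.86 without control library 1 and 0.89 without wild-type library 2. The muscle-rich hspb6 had 0 and 3.84 CPM in mutant, 2.78 and 2.42 CPM in control melanoma and 0.394 and 0 CPM in wild-type libraries, and rose in control against wild-type by 3.68 ± 0.75 (adjusted p = 3.81e-05). For hspb9 the rise in control against wild-type was 1.91 ± 0.56 (adjusted p = 0.00318), and its adjusted p was 0.0704 without control library 1 and 0.116 without wild-type library 2. With all 6 libraries in 1 fit, calls in control against wild-type were lost for BAG3 (adjusted p = 0.0499 at a fold change just under 1), hspb6 (adjusted p = 0.0743), hspb9 (adjusted p = 0.142) and hspb9l (adjusted p = 0.0524), and for 3 J-domain genes given below. The muscle list, given above, also had its highest sum in control melanoma and its lowest in wild-type, with 22 of 23 genes called higher in control against wild-type, and its part in these levels was not tested.

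HSPA12B, a distant Hsp70 relative found in endothelium, had 3.85 and 9.75 CPM in mutant, 15.3 and 18.2 CPM in control melanoma and 4.13 and 4.70 CPM in wild-type libraries. It rose in control against wild-type by 2.00 ± 0.24 (adjusted p = 6.81e-10), and mutant against control was −1.32 ± 0.44 (adjusted p = 0.0708). Mutant and wild-type libraries overlapped.

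The heat shock factors, which switch on the inducible genes, were called in no comparison by edgeR or DESeq2, with 1 of 2 tested factors lower at an unadjusted p under 0.05 in each. The main factor hsf1 had 10.5 and 20.4 CPM in mutant, 13.9 and 12.7 CPM in control melanoma and 21.8 and 30.2 CPM in wild-type libraries. Mutant against control was 0.21 ± 0.37 (adjusted p = 0.74) with overlapping libraries, and −0.33 without mutant library 2, while control against wild-type was −0.88 ± 0.18 (adjusted p = 2.74e-05), under the minimum size. HSF2 had 16.5 and 15.1 CPM in mutant, 25.5 and 27.7 CPM in control melanoma and 25.7 and 24.6 CPM in wild-type libraries (mutant against control −0.73 ± 0.24, adjusted p = 0.0635). HSF4 had no count, and hsf5 was at 0 counts in both mutant libraries and at 1.18 CPM or less elsewhere.

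Remaining BAG and J-domain members gave few calls. BAG2, an inhibitor of the ubiquitin ligase CHIP chosen here after its values were seen, had 0 counts in both mutant libraries, 1.39 and 1.66 CPM in control melanoma and 1.18 and 2.56 CPM in wild-type libraries. Against a floor of 3 counts per library it was at least 2.00-fold lower in mutant than in control and at least 2.45-fold lower than in wild-type. In the second of these comparisons BAG2 met the low-count filter only through the wild-type libraries, where it was high. It was called there by edgeR (adjusted p = 0.0405) but not by DESeq2. Its call is thus not independent of the filter, and it counts among the members called lower there. DNAJB12 (ENSDARG00000039363), a J-domain protein of the reticulum membrane, had 8.13 and 5.91 CPM in mutant, 6.34 and 5.14 CPM in control melanoma and 14.1 and 18.4 CPM in wild-type libraries. It fell against wild-type by 1.42 ± 0.24 in control (adjusted p = 1.29e-06) and by 1.16 ± 0.32 in mutant (adjusted p = 0.0373). The mutant call was lost without wild-type library 1 (adjusted p = 0.161), without wild-type library 2 (adjusted p = 0.467), without mutant library 2 (−0.98) and with DESeq2 (adjusted p = 0.0824).

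DNAJB5 had 6.20 and 3.25 CPM in mutant, 3.40 and 3.03 CPM in control melanoma and 0.689 and 1.13 CPM in wild-type libraries. It rose against wild-type by 2.40 ± 0.71 in mutant (adjusted p = 0.0448) and by 1.89 ± 0.53 in control (adjusted p = 0.00218). With 7 and 11 counts in wild-type, DNAJB5 met the low-count filter only through the melanoma groups, where it was high. Its calls are thus not independent of the filter. With no low-count filter its mutant call was lost (adjusted p = 0.0758). The mutant call of DNAJB5 was lost without mutant library 1 (adjusted p = 0.0592), without wild-type library 1 or 2 (adjusted p = 0.51 or 0.368) and with DESeq2 (adjusted p = 0.0853), and the control call without wild-type library 1 (adjusted p = 0.0591) and with all 6 libraries in 1 fit (adjusted p = 0.0517). DNAJB14 and DNAJC9 fell in control against wild-type (adjusted p = 0.000562 and 0.000692), but the call of DNAJB14 was lost with all 6 libraries in 1 fit (adjusted p = 0.067), and the fold change of DNAJC9 was −0.73 without control library 2. DNAJC21 was also called there (adjusted p = 0.0266) but in no fit that left out control library 2 (adjusted p = 0.292) or wild-type library 1 or 2 (adjusted p = 0.0667 or 0.131), nor with DESeq2 (adjusted p = 0.0919) or with all 6 libraries in 1 fit (adjusted p = 0.242). Neither edgeR nor DESeq2 called any of 12 tested genes of the other J-domain list (0 at an unadjusted p under 0.05) or of 6 BAG genes (1 higher) in mutant against control.

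Partner proteins of Hsp90 and TRiC outside the families were counted as well. Of 22 tested co-chaperones, 9 were called higher and none lower in mutant against control (median 0.94), where 5.86% of all genes were called higher. In control against wild-type none was called higher and 7 lower of 23 (median −0.72), where 12.1% of all genes were called lower. In mutant against wild-type 2 were called higher and 1 lower of 23 (median −0.06), both under the background of 9.72% and 9.57%. STIP1, which bridges Hsp70 and Hsp90, had 48.5 and 37.8 CPM in mutant, 20.6 and 17.5 CPM in control melanoma and 40.0 and 33.6 CPM in wild-type libraries (mutant against control 1.2, adjusted p = 0.00538). The 1 co-chaperone called lower in mutant against wild-type was FKBP5, a glucocorticoid-induced partner of Hsp90 (−1.09, adjusted p = 0.000173). It had 308 and 321 CPM in mutant, 252 and 246 CPM in control melanoma and 671 and 689.8 CPM in wild-type libraries.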

How the data were processed

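Total RNA was depleted of ribosomal RNA and sequenced with a stranded kit. The authors used Trimmomatic for trimming and STAR for alignment to GRCz11, and the deposited values are raw featureCounts counts per gene, 1 table per library. The annotation release, strand setting and handling of reads that match several genes are not given in the sources used here, so near-identical copies and the 39 members that share their span with another gene are uncertain. Names came from an identifier table covering 29201 of 32520 genes.

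Each pair of groups was fitted with edgeR 4.0.16 in R 4.3.3 (quasi-likelihood test, TMM, filterByExpr at its count limits of 10 and, for the total, 15, Benjamini-Hochberg adjustment over all genes tested). Standard errors are the fold change divided by the square root of F. CPM were scaled by TMM over 6 libraries. Alternatives used DESeq2 1.42.0, other scalings, filters, thresholds and lists, all libraries in 1 fit, a replicate block and each library left out. The labels give replicate numbers but no pairing of libraries between groups, and none was used in the main fits. The correlation of replicate differences between groups was −0.0012, −0.0083 and 0.0049, which gives no sign of pairing but cannot exclude it. Code was tested on simulated data.

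Named members are those in the role lists averaging 10 CPM or more, every heat shock factor, and for each comparison the 8 largest rises and 8 largest falls among called members that averaged 1 CPM or more and whose groups stood apart. Others are said to be chosen after their values were seen, except genes of other lists given for context. Members and lists were chosen with earlier results of these data known, and the table's name for the sixth TRiC subunit was added after the name table was read. A further target of the guides is not reported here.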

Additional observations from a re-analysis of the deposited data

How the results depend on the processing

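No called fold change of a named member changed sign under any alternative (51 called of 171 pairs of gene and comparison), while 20 pairs that were not called did under at least 1. Depth limits the members under 10 CPM. Where a library was left out, the lone library of its group was assumed to vary like the other group. In both comparisons with mutant, leaving out a mutant library raised the number of all genes called. Leaving out a library of the other group lowered it, so calls lost in that way are not particular to the members. With DESeq2 or no low-count filter, the median of all genes moved from −0.02 to −0.20 in mutant against control, and from −0.03 to −0.13 or −0.26 in mutant against wild-type. A second name source could not be matched to the identifiers, so that alternative was not run. Except where stated, the cause of a change was not tested.

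In mutant against control, the 18 members called higher became 5 at a minimum absolute log2 fold change of 2 and between 12 and 23 with a library left out. The 1 called lower became 0 at that minimum and with no low-count filter, 3 with DESeq2 and with at least 10 counts in every library, 4 with all libraries in 1 fit, and between 0 and 10 with a library left out. In control against wild-type, the 16 called higher became 5 at the minimum of 2, 10 with at least 10 counts in every library (fewer genes tested), 8 with all libraries in 1 fit and 11 to 17 with a library left out, and the 11 called lower became 38 with no minimum fold change, 0 at the minimum of 2 and 10 to 13 with a library left out. In mutant against wild-type, the 6 called higher became 12 and the 6 called lower 10 with no minimum fold change. There, calls lower were 2 at the minimum of 2 and 3 with DESeq2, and leaving out a library gave 5 to 15 higher and 2 to 15 lower. Fitted with the replicate block, members called higher and lower were 17 and 3, 14 and 11, and 5 and 6 in the 3 comparisons, which is 3 instead of 1 lower in mutant against control, and HSPBP1 there and DNAJB5 and hsp70.1 in mutant against wild-type lost their calls.

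The inducible median in control against wild-type (−0.05) was 0.033 with DESeq2, 0.013 with no low-count filter and −0.29 to 0.21 with a library left out, and in mutant against wild-type (0.34) it was −0.67 over the narrow list. The constitutive median in mutant against wild-type (−0.12) ran between −0.17 and 0.010 with a library left out. For hsf1 in mutant against control the log2 fold change was 0.61 without mutant replicate 1 and −0.33 without mutant replicate 2, and for hsp90aa1.1 in control against wild-type 0.62 without control replicate 1 and −0.72 without control replicate 2. The inducible share of the constitutive sum was 3.23% and 3.08% in mutant, 6.62% and 6.04% in control melanoma and 4.20% and 3.99% in wild-type libraries over the narrow list. In 2 alternatives added after the values were seen it was 53.9% and 52.1%, 87.2% and 86.6%, and 72.5% and 65.7% without HSPA8 and HSP90AB1, and 3.81% and 3.59%, 7.34% and 6.76%, and 4.42% and 4.16% without HSP90AA1 and hsp90aa1.1.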

Other observations

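Several folding genes outside the named families moved with them in mutant melanoma. CRELD2, a secreted reticulum stress protein, had 18.2 and 26.3 CPM in mutant, 2.94 and 2.12 CPM in control melanoma and 3.94 and 2.97 CPM in wild-type libraries, and rose in mutant against control by 3.14 ± 0.40 on the log2 scale (edgeR, adjusted p = 0.000932) and against wild-type by 2.7 (adjusted p = 0.00193). The disulfide isomerases PDIA4, PDIA6 and PDIA3 rose in mutant against control by 2.00, 1.38 and 1.08 (adjusted p = 0.000203, 0.00264 and 0.000246). STUB1, the ubiquitin ligase CHIP that BAG2 inhibits, had 34.6 and 63.9 CPM in mutant, 13.9 and 20.1 CPM in control melanoma and 18.5 and 19.1 CPM in wild-type libraries, and rose in mutant against control by 1.54 (adjusted p = 0.0099) and against wild-type by 1.40 (adjusted p = 0.0134). PFDN6, a subunit of prefoldin that delivers substrates to TRiC, had 29.5 and 21.3 CPM, 7.73 and 10.7 CPM, and 7.87 and 6.85 CPM in the same order. PTGES3, the Hsp90 partner p23 (ENSDARG00000089626), had 58.4 and 51.4 CPM in mutant, 19.0 and 20.7 CPM in control melanoma and 43.7 and 42.4 CPM in wild-type libraries and rose in mutant against control by 1.48 (adjusted p = 0.000803). These genes were picked from the lists after their values were seen, and no explanation was tested.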
